A study of Mus musculus with 12 samples.

Results

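Inflammasome, pyroptosis and necroptosis genes were followed in whole livers of septic mice, with or without dichloroacetate (DCA), an inhibitor of pyruvate dehydrogenase kinases. The genes were Nlrp3, Pycard, Casp1, Casp4, Gsdmd, Il18, Ripk1, Ripk3, Mlkl and Casp8, chosen by name from the table of reads per gene. All 10 were among its 25611 genes, and all 10 were among the 13190 genes with enough reads to be tested. The livers came from 12 male C57BL/6J mice aged 8 to 10 weeks in 3 groups of 4, collected 30 hr post-surgery. Sham mice had an abdominal incision only. CLP mice underwent cecal ligation and puncture, with 2 punctures of a 22-gauge needle, which causes polymicrobial sepsis. CLP+DCA mice had the same surgery and were given DCA intraperitoneally at 25 mg/kg at 24 hr, 6 hr before collection. All mice received 1 ml of saline, and what sham and CLP mice were injected with at 24 hr is not given in the sources used here. There was no sham group given DCA, so a change under DCA was measured in septic livers alone.

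Inflammasomes are protein platforms that turn infection and cell damage into an inflammatory form of cell death. The sensor NLRP3 gathers the adaptor ASC (encoded by Pycard) and caspase-1 (Casp1), which matures IL-1β and IL-18 and cuts gasdermin D (Gsdmd). Caspase-11 (encoded by Casp4 in the mouse) senses lipopolysaccharide in the cytosol and also cuts gasdermin D, whose released fragment opens pores in the plasma membrane, a death called pyroptosis. Necroptosis is a separate route in which the kinases RIPK1 and RIPK3 lead to phosphorylation of the pseudokinase MLKL, which then breaks the membrane. Caspase-8 cuts RIPK1 and RIPK3 and thereby holds necroptosis back. In the liver, Kupffer cells are a known site of inflammasome activity, and hepatocytes are known to express little Ripk3. Activity of all these proteins is set by cleavage, assembly or phosphorylation, none of which is read by mRNA.

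The depth ranged from 24436513 to 44266819 gene-assigned reads in a mouse (median 30005989). Expression is given as CPM (read counts scaled to library size, with sizes adjusted by TMM). Genes were compared by edgeR's quasi-likelihood test in a single fit of the 12 mice, and a gene was called at a Benjamini-Hochberg false discovery rate (FDR) of 0.05. Marker genes of hepatocytes were the most abundant of the marker lists in all livers, at summed levels of 62610 to 81903 CPM in sham and 28780 to 45087 CPM in CLP. CLP+DCA replicate 3 stood apart from its group. Its median correlation with the other CLP+DCA livers, over log2 CPM of all tested genes, was 0.926, against 0.986 to 0.990 for the other 3. Its median correlation with the CLP livers was 0.960, against 0.964 to 0.967 for the other 3 CLP+DCA mice, so it was not closer to CLP than they were. The fit shares its estimate of spread, so leaving out CLP+DCA replicate 3 also moved the number of genes called in CLP versus sham. It went from 367 to 3157 (23.8% of the genes then tested), and in CLP+DCA versus CLP from 1 to 616 (4.64%). Leaving out CLP replicate 3 instead gave 990 genes (7.46%) in CLP versus sham. Calls made without either mouse are to be read beside these shares.

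Of the 10 genes, Il18 was the only one called in CLP versus sham, and it was lower in CLP. This is 1 of 10 genes where 2.78% of all tested genes were called, and 1.14% were called lower. Unadjusted p-values under 0.05 were found for 4 of the 10 genes (Nlrp3, Gsdmd and Ripk3 with higher means in CLP and Il18 lower), against 28.6% of all genes. For 4 genes the CLP and sham mice did not overlap, with Casp4, Gsdmd and Ripk3 above and Il18 below the sham range, against 26.5% of all genes. The median log2 fold change of the 10 genes was 0.35, where that of all tested genes was 0.02, and 7 of the 10 fold changes were positive. In CLP+DCA versus CLP none of the 10 genes was called by edgeR or by DESeq2, 1 had an unadjusted p under 0.05 (Mlkl), and none had groups that did not overlap. The plot of expression per mouse shows all 10 genes.

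**Figure D1:**
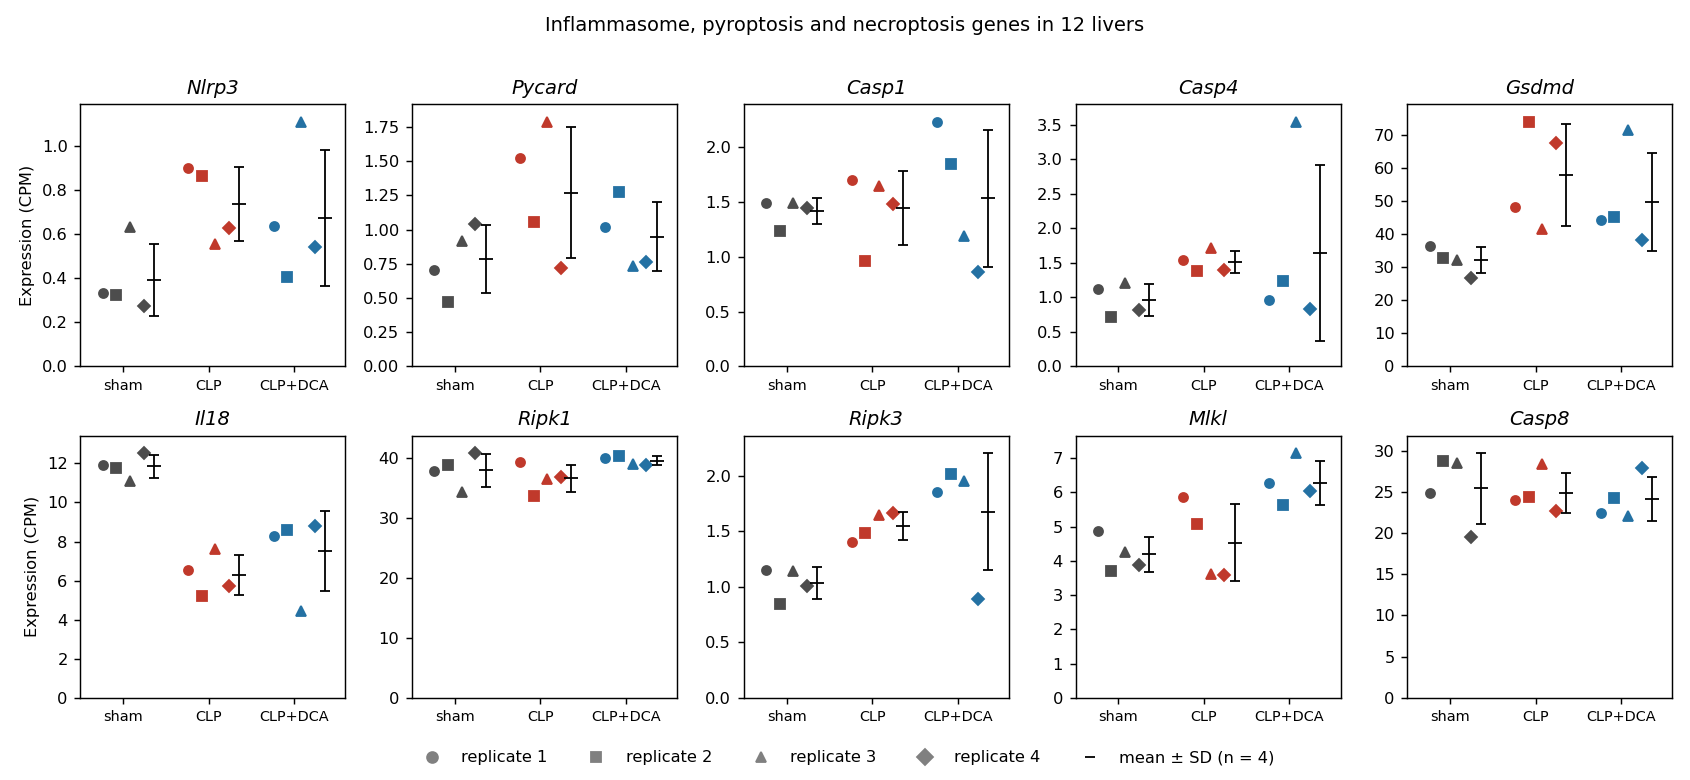
Expression in CPM (vertical axes, each starting at 0) of the 10 genes in each of the 12 livers, by group, with 1 symbol per replicate and the mean ± SD beside it. Il18 lies at 11.1 to 12.5 CPM in sham and at 5.22 to 7.62 CPM in CLP, and CLP+DCA replicate 3 (triangle) is apart from its group for Il18, Casp4 and Gsdmd.

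The cytokine Il18 (NCBI Gene 16173, mm10 chromosome 9 from 50554700 to 50581841, plus strand) had the smallest p of the 10 genes. Its levels were 11.9, 11.8, 11.1 and 12.5 CPM in sham replicates 1 to 4, 6.57, 5.22, 7.62 and 5.75 CPM in the CLP mice, and 8.27, 8.57, 4.47 and 8.78 CPM in the CLP+DCA mice. All 4 CLP mice lay below all sham mice, and so did all 4 CLP+DCA mice. Il18 fell from 11.8 ± 0.583 CPM in sham to 6.29 ± 1.05 CPM in CLP (mean ± SD, n = 4 each), which is 1.88-fold lower (log2 fold change -0.91, standard error 0.19, adjusted p = 0.0412 by edgeR). A two-sided exact permutation test of these 8 mice gave p = 0.0286, the smallest that 4 against 4 mice allow.

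The direction of the Il18 change was the same under all 20 alternative settings, with log2 fold changes of -1.06 to -0.83. The call was kept under 8 of them and lost under 12, with adjusted p up to 0.121. It was lost when any of sham replicates 1 to 4, CLP replicates 1, 2 or 4, or CLP+DCA replicates 1 or 2 was left out, and without CLP+DCA replicate 3 the adjusted p was 0.00113. In whole liver, fewer cells that express a gene and less of its mRNA per cell cannot be told apart.

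With DCA, the 3 CLP+DCA mice other than replicate 3 lay above all CLP mice and below all sham mice for Il18. The mean of the 4 was 7.52 ± 2.05 CPM, and the log2 fold change to CLP was 0.25 (standard error 0.19, 95% interval -0.17 to 0.68, adjusted p = 0.698), which is within the spread between mice. Without replicate 3 it was 0.43 (unadjusted p = 0.00396, adjusted p = 0.0587), which again did not pass the FDR. The comparison of CLP+DCA with sham gave a log2 fold change of -0.66 (adjusted p = 0.269), and -0.47 (adjusted p = 0.260) without replicate 3. This comparison shares the sham mice with the comparison of CLP to sham.

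Gsdmd, the pore-forming substrate of caspase-1 and caspase-11 (NCBI Gene 69146, chromosome 15 from 75862339 to 75867404), had levels of 36.5, 32.8, 32.1 and 26.8 CPM in sham replicates 1 to 4. The CLP mice were at 48.1, 74.0, 41.6 and 67.6 CPM, and the CLP+DCA mice at 44.1, 45.1, 71.3 and 38.3 CPM. Every septic liver, treated or not, was above the highest sham liver. The means were 32.1 ± 3.98 CPM in sham, 57.8 ± 15.4 CPM in CLP and 49.7 ± 14.7 CPM in CLP+DCA (SD, n = 4 each), and the log2 fold change of CLP to sham was 0.85 (standard error 0.22, adjusted p = 0.0580), just outside the FDR.

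Whether Gsdmd was called depended on the setting. DESeq2 and edgeR fitted to the 8 mice compared called it (adjusted p = 0.000529 and 0.0223), as did DESeq2 on all 12 mice (0.00737). These fits called 18.5%, 18.3% and 10.1% of all genes. Gsdmd was also called without CLP replicate 3 (log2 fold change 0.98, adjusted p = 0.0316), where 7.46% of all genes were called. Without CLP+DCA replicate 3 it was called too (0.85, adjusted p = 0.00793), beside 23.8% of all genes. None of the other 15 alternatives called it. Against CLP, the CLP+DCA mice had a log2 fold change of -0.22 (95% interval -0.69 to 0.26, adjusted p = 0.766), and of -0.44 (adjusted p = 0.145) without CLP+DCA replicate 3. Against sham the value was 0.63 (adjusted p = 0.301), and 0.41 (adjusted p = 0.526) without that mouse.

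Gsdmd and Il18 moved apart within each septic liver. The ratio of Gsdmd to Il18 reads in a mouse, which does not depend on the scaling of libraries, was 2.72 ± 0.399 in sham with a range of 2.14 to 3.06. In CLP it was 7.33, 14.2, 5.46 and 11.8 in replicates 1 to 4, and in CLP+DCA 5.33, 5.26, 16.0 and 4.36. The ranges of both septic groups lay above that of sham and overlapped each other. CLP+DCA replicate 3 had the highest ratio of the 12 mice, and the other 3 CLP+DCA mice lay below all 4 CLP mice.

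**Figure D2:**
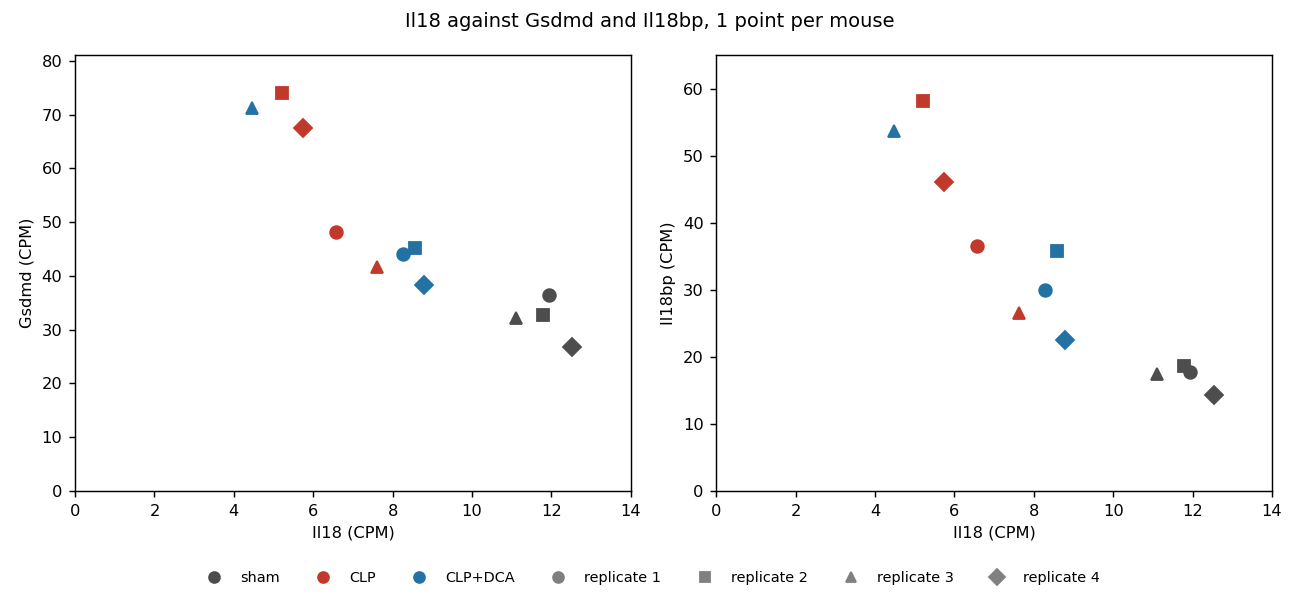
Il18 (horizontal axes, CPM) against Gsdmd and against Il18bp (vertical axes, CPM), with 1 point per mouse, colors for groups and shapes for replicates. Sham mice hold the lower right corner of both panels, and CLP replicates 2 and 4 with CLP+DCA replicate 3 hold the upper left, at 4.47 to 5.75 CPM of Il18 and 67.6 to 74.0 CPM of Gsdmd.

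The sensor Nlrp3 (NCBI Gene 216799, chromosome 11 from 59542686 to 59566956) was detected by 9 to 41 reads per mouse. Its levels were 0.335, 0.322, 0.633 and 0.274 CPM in sham, 0.899, 0.862, 0.556 and 0.629 CPM in CLP, and 0.638, 0.403, 1.11 and 0.541 CPM in CLP+DCA. Sham replicate 3 overlapped the CLP mice, and the other 3 sham mice lay below all of them. The log2 fold change of CLP to sham was 0.91 (standard error 0.37, 95% interval 0.10 to 1.72, adjusted p = 0.137) so that its change was similar in size to that of Il18 but with a larger error.

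The adaptor Pycard (NCBI Gene 66824, chromosome 7) had 16 to 74 reads per mouse, and its groups overlapped, at 0.470 to 1.04 CPM in sham, 0.718 to 1.79 CPM in CLP and 0.731 to 1.28 CPM in CLP+DCA. Its log2 fold change was 0.72 (95% interval -0.01 to 1.45, adjusted p = 0.180) in CLP versus sham and -0.45 (adjusted p = 0.688) in CLP+DCA versus CLP. The annotation places 485 of its exonic bases, 12.8%, opposite an antisense gene (Gm45205) that is not among the genes counted. Without strand, the gene of origin of reads in the overlap cannot be told.

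Casp1, the effector protease of the platform (NCBI Gene 12362, chromosome 9 from 5298517 to 5307281), had nearly equal means of 1.42 ± 0.120 CPM in sham, 1.45 ± 0.340 CPM in CLP and 1.53 ± 0.623 CPM in CLP+DCA. Its log2 fold change of CLP to sham was 0.05 with a 95% interval of -0.58 to 0.67, so that a 1.59-fold rise was still inside the interval. The spread was widest with DCA, where replicates 1 and 2 (2.23 and 1.85 CPM) were above every other mouse and replicate 4 (0.859 CPM) was below every other mouse.

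Casp4, which encodes caspase-11 (NCBI Gene 12363, chromosome 9 from 5308849 to 5336791), begins 1567 bases beyond the end of Casp1 on the same strand. It was at 1.12, 0.718, 1.20 and 0.821 CPM in sham, at 1.54, 1.39, 1.72 and 1.39 CPM in CLP and at 0.958, 1.24, 3.55 and 0.827 CPM in CLP+DCA. All CLP mice were above all sham mice, and CLP+DCA replicate 3 was above all others. The log2 fold change of CLP to sham was 0.66 (standard error 0.42, adjusted p = 0.302), and the same value had a standard error of 0.22 and an adjusted p of 0.0498 without CLP+DCA replicate 3. That mouse also set the direction under DCA. The log2 fold change of CLP+DCA to CLP was 0.13 (95% interval -0.77 to 1.02) with it and -0.59 (standard error 0.24, adjusted p = 0.142) without it, when the other 3 CLP+DCA mice were below every CLP mouse.

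The neighbors Casp1 and Casp4 did not shift in parallel from sham to CLP. Their exonic lengths differ (1497 and 3710 bases), so a ratio of their reads describes the shift and not their relative levels. The ratio of Casp4 to Casp1 reads was 0.676 ± 0.122 in sham and 1.08 ± 0.251 in CLP, and the ranges of 0.566 to 0.809 and 0.905 to 1.45 did not overlap. In CLP+DCA the ratio ran from 0.429 to 2.98 and covered both.

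Upstream sequences were examined as a planned description of the 10 genes. RefSeq promoter windows (assembly GRCm38.p6, from 250 bases before to 50 bases after a start site) were matched by symbol for 9 of the 10 genes, all but Gsdmd, in 12 windows. They were searched on both strands for a kappa B motif spelled GGNNTTTCC, which 5.82% of 32851 promoter windows hold, for a STAT motif spelled TTCNNNGAA (8.30%) and for an ISRE motif spelled GAAANNGAA (8.56%). The kappa B letters were found in both windows of Nlrp3 and both of Casp4. The Casp4 windows overlap almost wholly (they start at 5308599 and 5308610) and hold the same 2 matches. The STAT letters were found in 1 window of Ripk1, and the ISRE letters in that window, where they overlap a STAT match, and in that of Ripk3. The windows of Pycard, Casp1, Il18, Mlkl and Casp8 held none of the 3 motifs. A stretch before the start site that holds no annotated exon base is shown for Il18, as the gene that fell, and for Nlrp3 and Casp4, as the genes with a kappa B match. The stretches read 5′ to 3′ on the plus strand, with a kappa B match in capitals. The Il18 stretch holds none of the 3 motifs and lies inside the Bco2 gene on the opposite strand. The Nlrp3 stretch lies inside an intron of a longer Nlrp3 transcript, with its match 94 bases before the start site, and the capitals of Casp4 lie 92 bases before its start site. A second Casp4 match, on the minus strand 14 bases before that site, lies beyond the end of the stretch shown.
Il18 chr9:50554580-50554699: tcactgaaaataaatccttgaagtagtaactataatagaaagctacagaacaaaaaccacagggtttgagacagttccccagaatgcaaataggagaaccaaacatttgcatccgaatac
Nlrp3 chr11:59542566-59542685: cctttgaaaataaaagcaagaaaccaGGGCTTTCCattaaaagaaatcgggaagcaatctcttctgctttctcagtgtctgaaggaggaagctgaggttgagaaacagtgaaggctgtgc
Casp4 chr9:5308729-5308827: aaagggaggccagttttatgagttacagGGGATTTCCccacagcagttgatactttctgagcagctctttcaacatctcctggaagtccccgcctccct
These matches describe letters only, no binding was measured, and their part in the fold changes was not tested.

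Of the necroptosis genes, the kinase Ripk3 (NCBI Gene 56532, chromosome 14 from 55784995 to 55788857, minus strand) had the smallest p in CLP versus sham. Its levels were 1.15, 0.842, 1.14 and 1.01 CPM in sham, 1.41, 1.48, 1.64 and 1.66 CPM in CLP and 1.85, 2.02, 1.95 and 0.891 CPM in CLP+DCA. All CLP mice were above all sham mice, and 3 of the 4 CLP+DCA mice were above all CLP mice while replicate 4 was within the sham range. The log2 fold change of CLP to sham was 0.58 (standard error 0.25, unadjusted p = 0.0376, adjusted p = 0.151 by edgeR), and that of CLP+DCA to CLP was 0.12 (95% interval -0.41 to 0.65).

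Ripk1 (NCBI Gene 19766, chromosome 13 from 34002874 to 34035170), the kinase upstream of Ripk3, kept to a narrow range. Its means were 38.0 ± 2.75 CPM in sham, 36.6 ± 2.32 CPM in CLP and 39.6 ± 0.713 CPM in CLP+DCA, and all 12 mice lay between 33.7 and 40.8 CPM. The 95% interval of its log2 fold change was -0.21 to 0.11 in CLP versus sham and -0.05 to 0.27 in CLP+DCA versus CLP, the narrowest of the 10 genes in both. Its exons share 511 bases (6.12%) with the pseudogene Gm17084 on the same strand, which is not among the genes counted. They share 241 bases (2.89%) with the antisense gene Serpinb6a, so that the origin of reads in these stretches is uncertain. The ratio of Ripk3 to Ripk1 reads was 0.0275 ± 0.00526 in sham and 0.0425 ± 0.00455 in CLP, without overlap, and 0.0423 ± 0.0130 in CLP+DCA.

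Casp8, the protease that restrains both kinases (NCBI Gene 12370, chromosome 1 from 58795374 to 58847503), also had close means, at 25.4 ± 4.29 CPM in sham, 24.9 ± 2.43 CPM in CLP and 24.2 ± 2.67 CPM in CLP+DCA. The 95% interval of its log2 fold change in CLP versus sham was -0.31 to 0.25. Casp8 reads per Ripk1 read numbered 0.677 ± 0.150 in sham mice, 0.682 ± 0.0820 after CLP and 0.611 ± 0.0728 with DCA, and the 3 ranges overlapped.

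Mlkl, the executioner of necroptosis (NCBI Gene 74568, chromosome 8), was the gene of the 10 with the smallest p under DCA. Its levels were 4.87, 3.71, 4.27 and 3.88 CPM in sham, 5.85, 5.07, 3.60 and 3.59 CPM in CLP and 6.29, 5.65, 7.15 and 6.04 CPM in CLP+DCA. CLP replicates 1 and 2 lay above the sham range and replicates 3 and 4 just below it, and 3 of the 4 CLP+DCA mice exceeded every CLP mouse. CLP+DCA replicate 2 lay under CLP replicate 1, so that the groups overlapped.

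The log2 fold change of Mlkl from CLP to CLP+DCA was 0.47 (standard error 0.17, 95% interval 0.09 to 0.85, unadjusted p = 0.0191, adjusted p = 0.415 by edgeR). A share of 1 in 10 genes under an unadjusted p of 0.05 was also that of all tested genes, 10%. Without CLP+DCA replicate 3 it was 0.40 (adjusted p = 0.171). In CLP versus sham it was 0.12 (95% interval -0.26 to 0.50). In CLP+DCA versus sham it was 0.59 (standard error 0.17, adjusted p = 0.269), where DESeq2 on the 8 mice compared gave an adjusted p of 0.0291, and all 4 CLP+DCA mice were above all sham mice. Mlkl reads per Ripk1 read numbered 0.111 ± 0.0181 in sham mice, 0.124 ± 0.0297 after CLP and 0.159 ± 0.0179 with DCA.

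**Figure D3:**
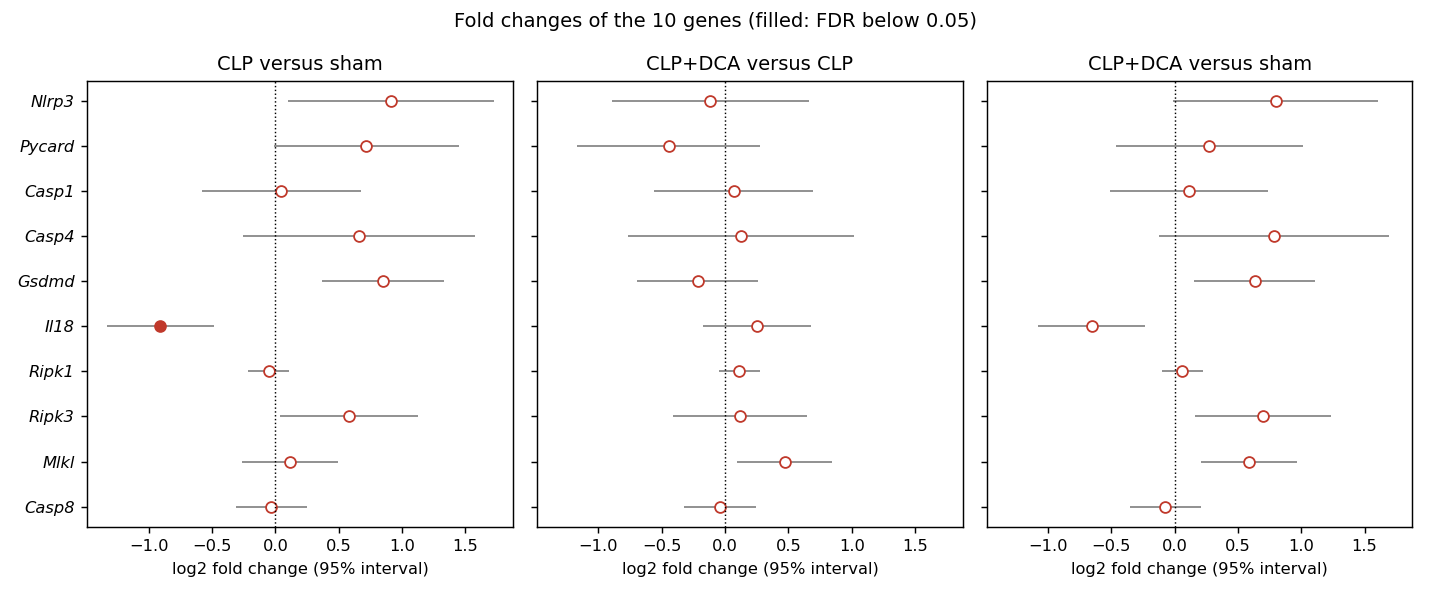
Log2 fold changes (horizontal axes) of the 10 genes in the 3 comparisons, with 95% intervals as bars and a filled point where the FDR is below 0.05. Il18 in CLP versus sham, at -0.91, is the single filled point, and Ripk1 and Casp8 have the narrowest bars around 0.

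Under DCA the whole set gave few differences. In CLP+DCA versus CLP, 0.00758% of all tested genes (1 gene) were called, 10% had an unadjusted p under 0.05 and 4.37% had groups that did not overlap. The median log2 fold change of the 10 genes was 0.09, where that of all tested genes was 0.01. Without CLP+DCA replicate 3, 616 genes (4.64% of those tested) were called and none of the 10, a count that does not set the 10 apart. Casp4, Gsdmd, Il18 and Mlkl then had unadjusted p-values under 0.05, as did 28.2% of all genes tested without that mouse.

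In CLP+DCA versus sham, 0.0379% of all tested genes were called and none of the 10 by edgeR. DESeq2 on the 8 mice compared called Mlkl, beside 0.932% of all genes. Unadjusted p-values under 0.05 were found for 4 of the 10 genes (Gsdmd, Ripk3 and Mlkl higher, Il18 lower), against 13% of all genes. Groups that did not overlap were found for 3 of them, with Gsdmd and Mlkl above and Il18 below sham, against 9.76% of all genes. The median log2 fold change was 0.43, where that of all genes was 0.01. Without CLP+DCA replicate 3, 11 genes (0.0828%) were called and none of the 10.

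Read levels of different genes were compared per kilobase of annotated exon (GENCODE release M21). In sham livers Gsdmd (13.5 ± 1.67 CPM per kb) and Il18 (11.5 ± 0.565 CPM per kb) were the most abundant of the 10, with overlapping ranges, followed by Casp8 (8.79 ± 1.48) and Ripk1 (4.55 ± 0.329). Mlkl (1.82 ± 0.223) and Casp1 (0.946 ± 0.0802) came next. Ripk3 (0.452 ± 0.0631), Casp4 (0.260 ± 0.0625), Pycard (0.206 ± 0.0658) and Nlrp3 (0.0963 ± 0.0403) were the lowest, and the ranges of Casp4 and Pycard, and of Pycard and Nlrp3, overlapped. The sensor Nlrp3 thus had the lowest mean per length, and the downstream substrates of the platform the highest. The exon union of Pycard (3800 bases, from 127989708) extends beyond the locus on which its reads were counted (127991373 to 127993867). Its level per kb is therefore understated, and its place among the 10 is uncertain. In CLP the pair at the top was parted, at 24.3 ± 6.48 CPM per kb for Gsdmd and 6.10 ± 1.01 CPM per kb for Il18, with no overlap. Casp8 (8.59 ± 0.840) then stood above Il18, also without overlap.

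The wider pathways were covered by 78 other genes in 8 lists, and 70 of them had enough reads to be tested. Against sham, CLP livers showed 4 of the 70 genes called higher (Nlrp12, Fas, Il18bp and Il1b) and 66 not called, beside 2.78% of all tested genes called. None was called lower by edgeR on all 12 mice. At an unadjusted p under 0.05, 14 were higher and 6 lower, a share like the 28.6% of all genes. Their median log2 fold change was 0.10. In that fit, none was called in CLP+DCA versus CLP, where 3 higher and 4 lower genes had an unadjusted p under 0.05 (10% of all genes). None was called in CLP+DCA versus sham either, where 13 higher genes and 1 lower gene had such a p (13% of all genes). Of the genes named here, DESeq2 on all 12 mice called Gbp3 in the former (log2 fold change 0.96, adjusted p = 0.0206) and Il18bp, Nlrp12, Il1rn and Il1r1 in the latter (adjusted p from 0.0203 to 0.0434). Too few reads were found for a test of 8 genes, among them Tnf (0 to 11 reads per mouse), Fasl (1 to 4), Gsdma (0 to 6) and Gsdmc (0 to 2), and the IL-18 receptor genes Il18r1 (4 to 47) and Il18rap (2 to 22).

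**Figure D4:**
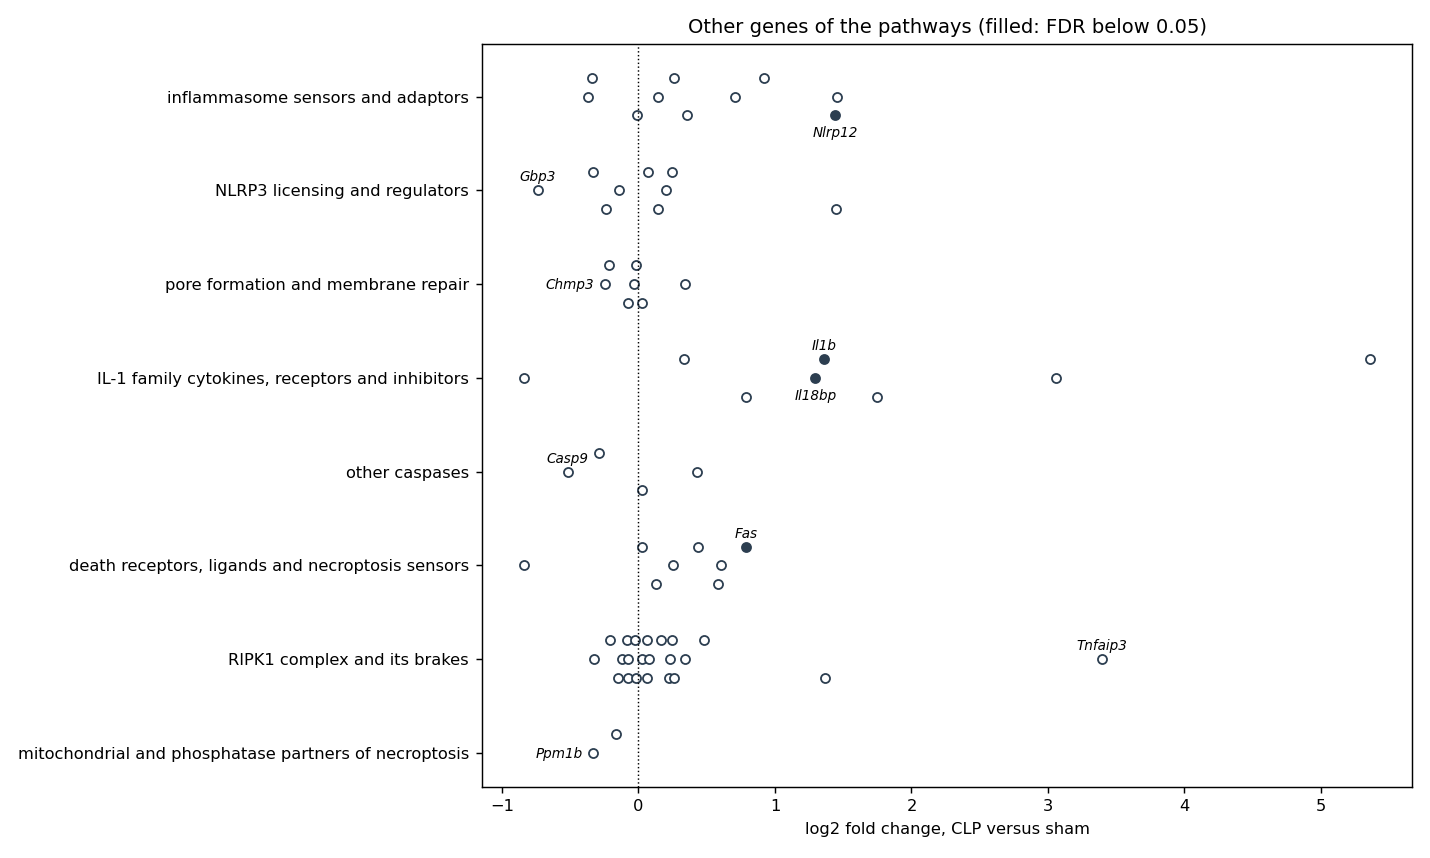
Log2 fold changes of CLP versus sham (horizontal axis) for the 70 tested genes of the 8 lists (vertical axis, with points spread within a list for legibility), filled where the FDR is below 0.05. Labels mark the 4 called genes and, for each list, the gene of smallest p, and most genes of the RIPK1 complex lie close to 0.

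Around Il18, its decoy moved the opposite way. Il18bp encodes a secreted protein that binds and neutralizes IL-18. Its levels were 17.7, 18.7, 17.4 and 14.3 CPM in sham, 36.6, 58.2, 26.5 and 46.2 CPM in CLP and 29.9, 35.8, 53.7 and 22.5 CPM in CLP+DCA, and all septic livers were above all sham livers. It rose 2.46-fold in CLP (log2 fold change 1.30, standard error 0.27, adjusted p = 0.0403), and the log2 fold change of CLP+DCA to CLP was -0.24 (adjusted p = 0.802). The call held under 9 of 20 alternatives. When single mice were left out it held only without CLP replicate 3, CLP+DCA replicate 3 or CLP+DCA replicate 4. Without these mice, 7.46%, 23.8% and 3.92% of all genes were called.

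Il1b, the other cytokine matured by caspase-1, rose from 1.23 ± 0.305 to 3.20 ± 0.889 CPM (SD, n = 4 each, log2 fold change 1.36, adjusted p = 0.0463). Its call held under 8 of 20 alternatives, including the same 3 single mice left out. With DCA the level was 1.60 ± 0.696 CPM, and the log2 fold change to CLP was -0.99 (unadjusted p = 0.00749, adjusted p = 0.363), or -1.34 (adjusted p = 0.0251) without CLP+DCA replicate 3. Of the 8 tested genes of the IL-1 family list, 7 had positive fold changes, with a list median of 1.33.

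Il1rn, Il1r1 and Il1r2 of that list were picked out after their values were seen. Il1rn encodes the antagonist of the IL-1 receptor and had 1.87 to 5.88 CPM in sham but 20.2, 331, 34.2 and 177 CPM in the CLP mice, which is a log2 difference of 5.36 with a standard error of 1.62 (adjusted p = 0.0761). The receptor Il1r1 had a log2 fold change of 1.75 (adjusted p = 0.0510) and the decoy receptor Il1r2 one of 3.06 (adjusted p = 0.0772). For all 3 the CLP mice were above the sham mice. Without CLP+DCA replicate 3 all 3 were called (Il1rn adjusted p = 0.00624, Il1r1 0.00611, Il1r2 0.00166), and edgeR on the 8 mice compared also called them (0.0171, 0.0145 and 0.00487), as did DESeq2 on those mice. With DCA, Il1rn was at 3.38, 5.75 and 4.84 CPM in replicates 1, 2 and 4, and at 318 CPM in replicate 3. Its log2 fold change of CLP+DCA to CLP was -0.76 (adjusted p = 0.878) in all mice and -4.91 (adjusted p = 0.0339) without replicate 3. For Il1r2 the values were -0.56 (adjusted p = 0.841) and -2.68 (adjusted p = 0.0186).

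Among inflammasome sensors, Nlrp12 was called. It encodes a sensor of the same family as NLRP3, and rose from 43.4 ± 8.54 CPM in sham to 118 ± 17.9 CPM in CLP, a 2.71-fold change (log2 1.44, standard error 0.20, adjusted p = 0.0129). This call held under 18 of 20 alternatives and was lost without sham replicate 1 (adjusted p = 0.0578) or sham replicate 2 (0.0509). With DCA it stood at 55.5, 80.0 and 56.5 CPM in replicates 1, 2 and 4 and at 94.97 CPM in replicate 3. Every CLP+DCA mouse lay below every CLP mouse and above every sham mouse. The log2 fold change to CLP was -0.71 (unadjusted p = 0.00362, adjusted p = 0.306), and -0.88 (adjusted p = 0.0292) without CLP+DCA replicate 3.

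On the death receptor side, Fas, a receptor that recruits caspase-8, rose from 21.2 ± 0.987 to 36.7 ± 7.17 CPM (log2 fold change 0.79, adjusted p = 0.0254), a call held under 13 of 20 alternatives and lost when any 1 of the 4 sham mice, CLP replicate 2 or CLP replicate 4 was left out. With DCA it was at 25.4 ± 3.63 CPM, and the log2 fold change to CLP was -0.53 (adjusted p = 0.255), or -0.63 (adjusted p = 0.0318) without CLP+DCA replicate 3.

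Of 4 other caspase genes, none was called in any comparison by edgeR on all 12 mice, and 1 had an unadjusted p under 0.05 in CLP versus sham, where 28.6% of all genes did. This was Casp9, the initiator caspase of the mitochondrial route of apoptosis, which had 16.4 ± 1.86 CPM after CLP against 23.6 ± 0.422 CPM in sham mice (log2 fold change -0.52, adjusted p = 0.101). It was called by DESeq2 and by edgeR on the 8 mice compared (adjusted p = 2.34e-05 and 0.0121) and without CLP+DCA replicate 3 (adjusted p = 0.0117). Its CLP and CLP+DCA values were all below its sham values, and with DCA its mean was 16.5 ± 5.08 CPM.

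Of the 22 other genes of the RIPK1 complex, none was called by edgeR on all 12 mice in CLP versus sham, where 2.78% of all genes were, so that a count of 0 does not set the list apart. An unadjusted p under 0.05 was found for 3 higher genes and 1 lower gene (28.6% of all genes), and the list median was 0.06. Tnfaip3, which encodes the ubiquitin-editing enzyme A20, had the smallest p, with 7.17, 54.2, 9.26 and 52.6 CPM in the CLP mice against 2.27 to 3.52 CPM in sham (log2 fold change 3.40, standard error 0.91, adjusted p = 0.0630). It was called by DESeq2, by edgeR on the 8 mice compared, and without CLP replicate 3 or CLP+DCA replicate 3 (adjusted p = 0.0412 and 0.00955). In the remaining lists the smallest p belonged to Gbp3 (log2 fold change -0.74, adjusted p = 0.0813), Chmp3, of the membrane repair machinery (-0.24, adjusted p = 0.0922), and the phosphatase gene Ppm1b (-0.33, adjusted p = 0.159). Without CLP+DCA replicate 3, Gbp3 and Chmp3 were called (adjusted p = 0.0422 and 0.0369), and both were also called by DESeq2 on the 8 mice (0.0291 and 0.0199) and on all 12 (0.0307 and 0.0338).

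Marker genes of several cell types moved between the same groups. The summed level of 8 hepatocyte markers (led by Alb and Apoa1) was lower in all CLP than in all sham mice, and 1 of the 8 genes was called lower. Alb was the largest part of the sum (39666 to 58481 CPM in sham, 15323 to 24432 CPM in CLP). Alb and Ttr lay below sham in all CLP mice, while Apoa1, Cps1, Tat, Cyp2e1, Hnf4a and Asgr1 overlapped. The 8 neutrophil markers (led by S100a9 and S100a8) summed to 6.24 to 8.97 CPM in sham and 31.2 to 44.0 CPM in CLP, with 1 called higher, while Ly6g among them, picked out like Ngp after its values were seen, was at 0.669 to 1.04 CPM in sham and 0.269 to 0.701 CPM in CLP. Ngp was at 0 in 3 of the 4 sham mice. The 5 monocyte markers summed to 1.26 to 2.53 CPM in sham and 4.80 to 9.21 CPM in CLP. Of these, Chil3 and F13a1 lay above sham in all CLP mice, while Ccr2, Ly6c2 and Ms4a4c overlapped. The sum of the 10 markers of Kupffer cells and macrophages overlapped between sham (194 to 320 CPM) and CLP (299 to 386 CPM), and none was called. Marco among them did not overlap, at 6.14 to 19.4 CPM in sham and 31.1 to 87.7 CPM in CLP, and the others did.

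**Figure D5:**
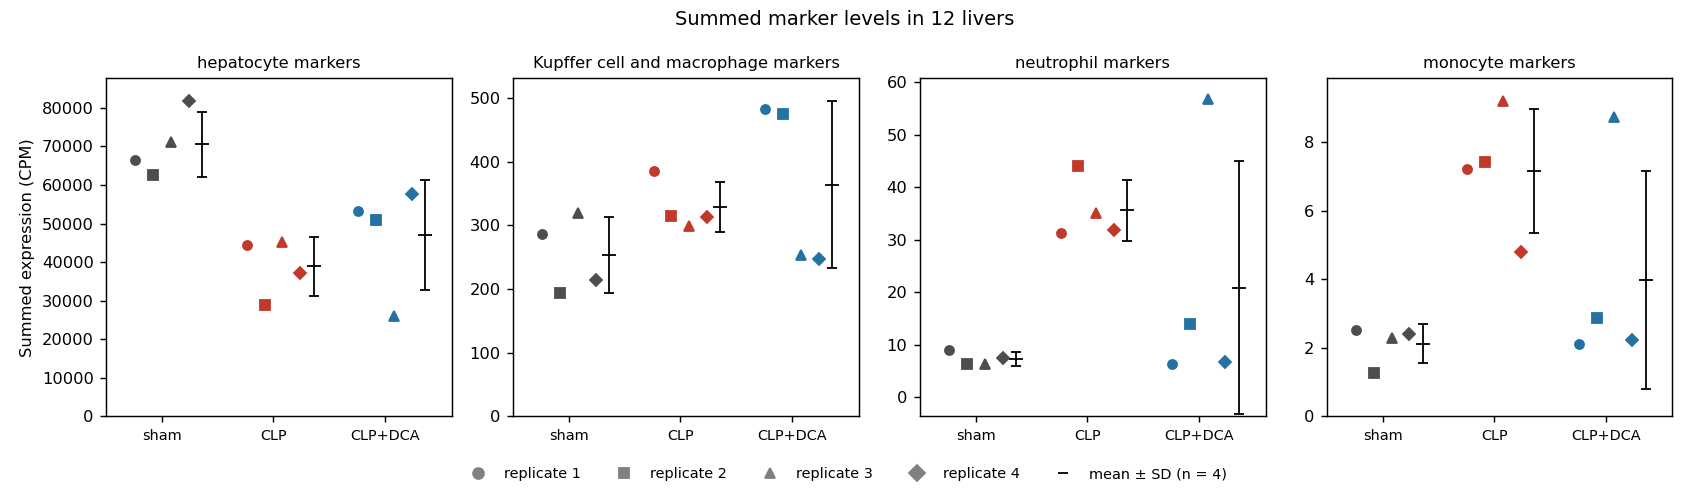
Summed expression in CPM (vertical axes) of marker genes of hepatocytes, Kupffer cells and macrophages, neutrophils and monocytes in each of the 12 livers, with 1 symbol per replicate and the mean ± SD beside it. CLP+DCA replicate 3 (triangle) has the lowest hepatocyte sum and the highest neutrophil sum of the 12.

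With DCA, the neutrophil sum was 6.26 to 13.8 CPM in replicates 1, 2 and 4 and 56.8 CPM in replicate 3. The hepatocyte sum was 51035 to 57674 CPM in the same 3 mice and 26074 CPM in replicate 3, and markers of cholangiocytes (5 genes, led by Spp1) were at 38.4 to 66.2 CPM and 213 CPM. Of the 213 CPM, Spp1 held 139 CPM and Sox9 71.0 CPM. There Epcam (0.921 CPM) and Krt19 (0.650 CPM) lay within the sham range, and Krt7 (1.16 CPM) above it. The cholangiocyte sum was also higher in CLP (61.9 to 96.1 CPM) than in sham (34.4 to 43.7 CPM), though Epcam overlapped. So was the sum of sinusoidal endothelium (7 genes, 153 to 186 against 115 to 151 CPM). Stab1, Lyve1 and Pecam1 lay above sham in CLP. Stab2, Clec4g, Oit3 and Kdr overlapped, with Kdr leaning lower (11.6 to 20.2 against 18.9 to 21.7 CPM). The sum of stellate cell markers (6 genes) overlapped, though Dcn and Des lay above sham in all CLP mice. CLP replicate 3 had the highest stellate sum (337 CPM). Des held 172 CPM of it, against 3.32 to 3.93 CPM of Des in the other CLP mice. Markers of T and NK cells (7 genes) and of B cells (4 genes) stayed below 3.3 CPM in every mouse, with lower sums in CLP than in sham. Kupffer and macrophage markers in CLP+DCA ran from 247 to 482 CPM, with replicates 1 and 2, the mice with the most Casp1, at 482 and 474 CPM. The part of these cell types in the values of Il18, Gsdmd, Casp1, Casp4 and Ripk3 was not tested.

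Genes that followed each of the 10 most closely were found by Pearson's r of log2 CPM over the 12 mice, which hold the 3 groups, so that differences between groups enter r. For Il18 these were Akr1c12 (r = 0.984), Akr1c13 (0.979) and Acot13 (0.977). The first pair are near-identical aldo-keto reductase genes whose reads the counting could have split. For Gsdmd they were Txlna (0.981), Dnajb9 (0.980) and Traf3 (0.979). For Ripk3 they were Vav1 (0.945), Clec4a1 (0.936) and Fcer1g (0.933), and for Casp1 they were Arhgap4 (0.879), Cd68 (0.854) and Leng1 (0.842). Casp4 was followed by Ccrl2 (0.939), Ppme1 (0.939) and Sema4c (0.932), and Nlrp3 by Src (0.937), Med24 (0.912) and Map1s (0.910). The likeness was lowest for Mlkl, with Dock10 (0.876), Dtx2 (0.869) and Api5 (0.844), and for Casp1. Pycard was followed by Slc8a1 (0.948), Ints6l (0.869) and Robo4 (0.866), Ripk1 by Dnd1 (0.922), Mtfmt (0.884) and Tgtp1 (0.870), and Casp8 by Abhd6 (0.921), Tsc22d1 (0.905) and Zfp979 (0.901).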

How the data were processed

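RNA of whole livers from 4 sham, 4 CLP and 4 CLP+DCA mice was sequenced once, with separate mice as replicates. The authors made poly(A)-enriched TruSeq v2 libraries, sequenced paired ends of 100 bases, aligned reads to mm10 (STAR 2.5) and assigned them to genes by featureCounts (Subread 1.5.0-p1). The table they deposited holds unnormalized read counts of 25611 genes, of which 6769 had no read in any mouse. Gene annotation and strand setting are not given in the sources used here. No molecular identifiers were used, so that duplicate reads of 1 molecule count separately.

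Counts were filtered by filterByExpr (minimum count 10), TMM-normalized and fitted in edgeR 4.0.16 (R 4.3.3, limma 3.58.1) by the robust quasi-likelihood method to all 12 mice, with contrasts tested at a Benjamini-Hochberg FDR of 0.05 over 13190 genes. The standard error is the log2 fold change divided by the square root of F, and 95% intervals use the degrees of freedom of the fit. Log2 CPM used a prior count of 2. Scripts were tested on simulated data, in which DESeq2 made wrong calls more often than edgeR and well above the nominal rate, so a call by DESeq2 alone is less firm. Exact permutation tests were two-sided. Alternatives changed the tool (DESeq2 1.42.0, on the 8 or all 12 mice), the mice fitted (the 8 of a comparison, or leaving out each mouse), the scaling (RLE, or library size only), the filter (none, or at least 1 CPM throughout a group) and the covariates (a replicate block).

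The 10 genes, the lists and the markers were chosen by name with earlier results of these data known, and 2 genes of the pathway lists are not reported here and are not in their counts. Named besides the 10 are pathway genes called in any comparison, the gene with the smallest p of each list, the 3 genes most alike to each of the 10, the 2 most abundant markers of a list, pathway genes with too few reads to be tested, and genes said to be picked after their values were seen. Markers beyond the 2 most abundant of a list were named after their values were seen. Exon lengths are unions from GENCODE M21 (GRCm38, the build of mm10), and promoters are from RefSeq (GRCm38.p6).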

Additional observations from a re-analysis of the deposited data

Results flagged for a closer look

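In 3 of 30 groups of 4 mice (10 genes in 3 groups), 1 mouse lay so far from the other 3 that its gap, divided by the range of the group, exceeded Dixon's 95% critical value. Chance flags about 1 in 20 groups. Il18 in CLP+DCA replicate 3 was at 4.47 CPM, where the other CLP+DCA mice were at 8.27 to 8.78 CPM (gap ratio 0.911). This is the mouse that stood apart from its group over all genes. Ripk3 in CLP+DCA replicate 4 was at 0.891 CPM, below the 1.85 to 2.02 CPM of the others (gap ratio 0.894), on 28 reads. Casp1 in sham replicate 2 was at 1.24 CPM, where the other sham mice were at 1.45 to 1.49 CPM (gap ratio 0.859), on 50 reads.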

How the results depend on the processing

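Fold changes rest on 4 mice per group, and Nlrp3, Pycard, Casp1, Casp4 and Ripk3 on at most 131 reads in a mouse, which limits what could be detected. In CLP versus sham, the main analysis called 367 genes (2.78%) and 1 of the 10. DESeq2 on the 8 mice compared called 3428 genes (18.5%), and DESeq2 on all 12 mice 1894 (10.1%). For edgeR on the 8 mice the number was 2387 (18.3%). Each fit called 2 of the 10 (Il18 and Gsdmd), which on the 8 mice is near the share of all genes. Gsdmd then had log2 fold changes of 0.84, 0.85 and 0.85. Library size alone called 209 genes (1.58%) and no filter 122 (0.647%), both with 0 of the 10. Il18 was then at -1.06 (adjusted p = 0.0511) and -0.92 (adjusted p = 0.0514). Leaving out single mice gave 10 to 3157 genes (0.0749% to 23.8%) and 0 to 3 of the 10. Il18 was then at -1.01 to -0.83, Gsdmd at 0.71 to 0.98 and Casp4 at 0.53 to 0.78. In CLP+DCA versus CLP, 1 gene was called. The 2 DESeq2 settings and edgeR on the 8 mice called 80 (0.431%), 136 (0.722%) and 0 genes. Leaving out single mice gave 0 to 616 genes (up to 4.64%), and all of these settings called 0 of the 10. In CLP+DCA versus sham, 5 genes were called. The same 3 settings called 169 (0.932%), 247 (1.31%) and 0 genes, library size alone called 3, and leaving out single mice gave 1 to 11. Only DESeq2 on the 8 mice called 1 of the 10 there (Mlkl, log2 fold change 0.59). RLE normalization and a filter of 1 CPM changed no call of the 10 (the causes of the differences between settings were not tested), but Nlrp3 and Pycard did not pass that filter and have no value under it.

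Library size alone moved the median log2 fold change of all tested genes to -0.15 in CLP versus sham and 0.12 in CLP+DCA versus CLP. With it, Casp1 (-0.11) and Mlkl (-0.054) changed sign in CLP versus sham, both near that median, and Casp8 (0.065) in CLP+DCA versus CLP. When single mice were left out, values near 0 crossed it: in CLP versus sham Casp1 (-0.044 to 0.19), Mlkl (-0.037 to 0.22) and Casp8 (-0.14 to 0.031), in CLP+DCA versus CLP Nlrp3 (-0.47 to 0.051), Casp1 (-0.17 to 0.26), Casp4 (-0.59 to 0.35), Casp8 (-0.12 to 0.028), Ppm1b (-0.049 to 0.15), Il1rn (-4.91 to 0.11) and Casp9 (-0.19 to 0.17), and in CLP+DCA versus sham Casp1 (-0.13 to 0.31). Casp9 in CLP+DCA versus CLP was also at -0.0042 under the 1 CPM filter.

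Replicate numbers did not pair the mice. Deviations of same-numbered mice from their group means correlated at -0.05 to 0.09 in CLP versus sham, at -0.46 to 0.55 in CLP+DCA versus CLP (0.55 for replicate 1 and below 0 for the other 3) and at -0.16 to 0.09 in CLP+DCA versus sham, and 3 of 12 mice correlated best with their own number. With the replicate number as a block, 46, 4 and 0 genes were called in the 3 comparisons, with 0 of the 10, Il18 was at -0.90 (adjusted p = 0.104), and Casp4 (-0.056) and Casp9 (-0.026) changed sign in CLP+DCA versus CLP.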
